A study of Homo sapiens with 8 samples.

Results

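Histone genes were followed in polyA RNA of C4-2, an established line of human prostate cancer cells descended from LNCaP and able to grow at low androgen. The group was chosen by gene symbol. It holds every gene whose symbol begins with HIST1H, HIST2H, HIST3H or HIST4H, which are the replication-dependent genes, and the replication-independent genes H2AFJ, H2AFV, H2AFX, H2AFY, H2AFZ, H3F3A, H3F3B, H1F0 and H1FX. Of the 18892 genes measured, 64 were members, 56 of them replication-dependent and 8 replication-independent. H3F3A was not analysed here. The study set 2 libraries of cells with a short hairpin RNA against CDCA8 (shCDCA8) against 2 libraries of cells with a control hairpin (shCTRL), all grown in RPMI medium with serum. Its product, borealin, belongs to the chromosomal passenger complex, which acts in chromosome segregation and cytokinesis. The labels name a single hairpin for the knockdown and no rescue, so that off-target effects cannot be told apart from those of CDCA8 loss. They do not say whether the 2 libraries of a group came from separate cultures, so the spread between libraries on which p-values rest may be technical. Small RNA libraries of the same series were not used here.

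Nucleosomes wrap DNA around the core histones H2A, H2B, H3 and H4, and linker histones of the H1 family bind between them. The replication-dependent genes lie in clusters, are transcribed in S phase and give mRNAs that end in a conserved stem-loop in place of a poly(A) tail. Some of them also give polyadenylated transcripts from sites further downstream, and such transcripts are known from cells that have left the cell cycle or differentiated. PolyA libraries therefore record mainly the tailed part of their output. The replication-independent genes give ordinary polyadenylated mRNAs throughout the cell cycle and encode variants with their own roles in chromatin. H2AFX is an exception, since its mRNA can end in either a stem-loop or a tail.

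CDCA8 itself stood at 3.98 and 3.94 RPM (reads scaled to the total of the library) in the shCDCA8 libraries, against 14.2 and 16.5 RPM in the shCTRL libraries. The RPM divisors, recovered from the step between values, ranged from 46709612 to 55289855 reads, of which 33.3% and 34.2% fell in the gene rows in shCDCA8, against 41.1% and 43.6% in shCTRL. The median log2 fold change over the 11833 genes tested was therefore -0.27, and for each histone gene the difference from this median is given as its relative change. The 10 prostate markers of the line were detected, KLK3 (prostate-specific antigen) among them at 364 and 438 RPM in shCDCA8 and 1454 and 1477 RPM in shCTRL. KRT8 went the other way, at 333 and 357 RPM in shCDCA8, against 198 and 216 RPM in shCTRL. At an adjusted p under 0.05 by limma, 6 of these markers were lower, 2 higher and 2 not called. Of all genes tested 47.6% were lower and 18.8% higher. Summed markers of leukocytes and endothelium were at 1.42 and 1.90 RPM in shCDCA8 and 5.33 and 6.59 RPM in shCTRL, most of it VWF. CD3E, a T cell marker, was at 0 in 3 of the 4 libraries. The part of these markers in the histone values was not tested, and in bulk RNA fewer cells of a type and less RNA per cell cannot be told apart.

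The promoters of the genes on which the comparison turns are shown first, as RefSeq gives them in build GRCh38.p14, from 250 bases before to 50 bases after the start site. HIST1H2BD, HIST1H2BK and HIST1H3H are shown because they were higher after knockdown, HIST1H2BL because it shares its promoter with HIST1H2AI, and H2AFZ as a replication-independent gene that was lower. Capitals mark matches on either strand to CCAAT, to TATAAA, to the octamer ATGCAAAT and to TTTNNCGC, a string close to the E2F consensus. Matches to different strings can overlap.
HIST1H2BD promoter (chr6:26157871-26158170, plus strand): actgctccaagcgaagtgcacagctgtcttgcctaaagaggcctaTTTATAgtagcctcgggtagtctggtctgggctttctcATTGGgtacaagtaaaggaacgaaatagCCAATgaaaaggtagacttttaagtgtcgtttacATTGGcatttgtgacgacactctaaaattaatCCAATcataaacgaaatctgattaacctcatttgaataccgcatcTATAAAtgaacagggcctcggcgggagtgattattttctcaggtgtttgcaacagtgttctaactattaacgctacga
HIST1H2BK promoter (chr6:27146809-27147108, minus strand): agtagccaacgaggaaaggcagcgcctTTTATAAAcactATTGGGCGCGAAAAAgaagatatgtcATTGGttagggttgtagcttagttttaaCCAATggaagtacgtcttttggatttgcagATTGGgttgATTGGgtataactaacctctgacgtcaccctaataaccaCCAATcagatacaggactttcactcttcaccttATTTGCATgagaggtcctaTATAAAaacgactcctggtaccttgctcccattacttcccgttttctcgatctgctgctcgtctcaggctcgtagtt
HIST1H3H promoter (chr6:27809801-27810100, plus strand): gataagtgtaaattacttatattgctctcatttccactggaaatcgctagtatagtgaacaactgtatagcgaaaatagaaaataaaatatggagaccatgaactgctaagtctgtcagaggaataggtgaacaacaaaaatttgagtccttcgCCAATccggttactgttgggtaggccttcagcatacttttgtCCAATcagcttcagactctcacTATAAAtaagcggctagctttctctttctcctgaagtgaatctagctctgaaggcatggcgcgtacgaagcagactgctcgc
HIST1H2BL promoter (chr6:27807880-27808179, minus strand): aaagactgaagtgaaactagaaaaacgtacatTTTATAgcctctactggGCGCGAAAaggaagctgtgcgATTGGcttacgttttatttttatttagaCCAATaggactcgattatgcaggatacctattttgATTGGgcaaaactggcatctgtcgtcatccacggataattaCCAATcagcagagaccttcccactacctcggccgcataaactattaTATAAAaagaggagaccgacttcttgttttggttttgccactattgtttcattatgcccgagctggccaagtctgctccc
H2AFZ promoter (chr4:99950226-99950525, minus strand): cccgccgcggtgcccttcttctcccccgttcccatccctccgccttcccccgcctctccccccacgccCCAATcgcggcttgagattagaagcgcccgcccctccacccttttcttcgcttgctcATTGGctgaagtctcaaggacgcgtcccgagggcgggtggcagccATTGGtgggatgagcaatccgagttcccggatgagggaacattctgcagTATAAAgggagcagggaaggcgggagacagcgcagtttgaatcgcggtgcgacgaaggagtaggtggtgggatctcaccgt
The octamer was in 22 of 49 replication-dependent promoters with a sequence, in 1 of 7 replication-independent ones and in 1.8% of all 27305 promoters of this length. Of the 15 H2B promoters 11 held it, and of the 8 H4 promoters 0 did. CCAAT was in 42 of the 49 replication-dependent promoters, in 5 of the 7 replication-independent ones and in 35.7% of all promoters, and TATAAA was in 33, in 4 and in 12% of all. TTTNNCGC was in 13 of the 49, in 1 of the 7 and in 6.9% of all. Among the replication-dependent genes that rose, 11 of 11 promoters held CCAAT, 8 of 11 TATAAA, 7 of 11 the octamer and 4 of 11 TTTNNCGC. Among those that fell, 4 of 6 held CCAAT, 1 of 6 TATAAA, 0 of 6 the octamer and 1 of 6 TTTNNCGC. Of the tested genes that were not called, HIST1H2AC, HIST1H2AM and HIST1H2BJ held the octamer too. HIST1H2BN did not, and HIST2H2BC had no promoter sequence. HIST1H3D and HIST1H2BF, which both rose, share the same octamer site. HIST1H2BC, which rose, shares its site with HIST1H2AC, which was not called as deposited. HIST1H2AG, which rose, shares its site with HIST1H2BJ, which was not called. The genes that rose and fell also differ in histone family, and these strings and family cannot be told apart here. A match is a description of letters and not a bound site.

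The promoters of HIST1H4E and HIST1H4H, the H4 genes that fell, held 0 matches to these 4 strings. They are shown because they shared a run of 26 bases, printed in capitals, that began 49 bases before the start site in both.
HIST1H4E promoter (chr6:26204360-26204659, plus strand): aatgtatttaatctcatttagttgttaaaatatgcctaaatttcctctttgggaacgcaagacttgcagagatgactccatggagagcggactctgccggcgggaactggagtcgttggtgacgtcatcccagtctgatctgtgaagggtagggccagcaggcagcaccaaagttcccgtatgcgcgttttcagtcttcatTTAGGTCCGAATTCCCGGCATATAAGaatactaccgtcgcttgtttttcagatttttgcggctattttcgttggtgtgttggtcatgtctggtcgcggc
HIST1H4H promoter (chr6:26285485-26285784, minus strand): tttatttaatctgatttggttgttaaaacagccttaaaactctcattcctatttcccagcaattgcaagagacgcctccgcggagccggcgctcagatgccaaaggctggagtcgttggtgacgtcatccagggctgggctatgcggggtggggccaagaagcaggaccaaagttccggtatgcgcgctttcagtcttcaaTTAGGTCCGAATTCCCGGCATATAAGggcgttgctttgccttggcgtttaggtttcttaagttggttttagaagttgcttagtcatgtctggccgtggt
The run was in these 2 of the 8 H4 promoters and in 3 of all 27305 promoters. The other was that of an unnamed locus. It was picked as the longest string shared by these 2 promoters, so its presence in both follows from the choice. At 184 of the 300 positions the 2 promoters held the same base. The other H4 genes were under the minimum for testing, and whether the run goes with a fall was not tested.

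The summed level of the replication-dependent genes was higher after knockdown and that of the replication-independent genes lower. Replication-dependent genes summed to 479 and 450.5 RPM in shCDCA8, against 340 and 350.3 RPM in shCTRL. Replication-independent genes summed to 771 and 748 RPM in shCDCA8, against 1036 and 1080 RPM in shCTRL. Within each library the replication-dependent genes had 622 and 603 reads per 1000 replication-independent reads in shCDCA8, against 328 and 324 in shCTRL, a ratio of 1.88. This ratio needs no scaling between libraries, and the groups stood apart by far more than the libraries of a group did. It was 363 and 356 in shCDCA8, against 213 and 213 in shCTRL, without HIST1H2BK. Without all H2B genes it was 149 and 144, against 107 and 104. The lower replication-independent sum raises each of these ratios, so the ratio without H2B does not show that the replication-dependent RPM rose outside H2B. Outside H2B, only the H3 sum was higher (32.7 and 30.2 RPM in shCDCA8, 14.8 and 13.7 RPM in shCTRL). As deposited, the sums of H1 (29.1 and 28.4, against 36.6 and 38.2 RPM) and H4 (4.75 and 5.21, against 9.06 and 9.59 RPM) were lower. That of H2A (48.3 and 43.8, against 49.9 and 50.8 RPM) was lower by little. Relative to the median log2 fold change of all genes tested, the median of the 6 H2A genes tested was 0.41 higher. With 2 libraries a group, an exact two-sided permutation test cannot go below p = 0.333, and no test was made of these sums.

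Gene by gene, 22 of the 56 replication-dependent genes reached at least 1 RPM in at least 2 of the 4 libraries and were tested with limma on log2(RPM + 1). Of these 11 rose, 6 fell and 5 were not called at an adjusted p under 0.05 (Benjamini-Hochberg). Their median log2 fold change was 0.30. All 8 replication-independent genes were tested, and 1 rose, 6 fell and 1 was not called, with a median of -0.79. Over all genes tested 66.4% were called, against 17 of 22 replication-dependent and 7 of 8 replication-independent genes. By direction, 18.8% of all genes rose and 47.6% fell, while the replication-dependent genes rose in a share of 50% and the replication-independent genes fell in a share of 75%. Of the replication-dependent genes HIST1H2BF passed the minimum only in shCDCA8, and HIST1H2BL and HIST1H4E only in shCTRL. Among the other 19, 10 rose, 4 fell and 5 were not called. After median-ratio scaling, which removes the shift of the whole table, 15 replication-dependent genes rose and 5 fell, and 2 replication-independent genes rose and 5 fell, where 66.8% of all genes were called, 33.2% higher and 33.6% lower. edgeR on recovered reads gave the same 4 counts, with 66% of all genes called. The shCDCA8 and shCTRL libraries did not overlap for 20 of 22 replication-dependent genes (14 higher, 6 lower) and for 8 of 8 replication-independent genes (2 higher, 6 lower), beside 83.2% of all genes tested. The difference between the class medians was 1.09 on the log2 scale as deposited and 1.03 with that scaling.

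**Figure D1:**
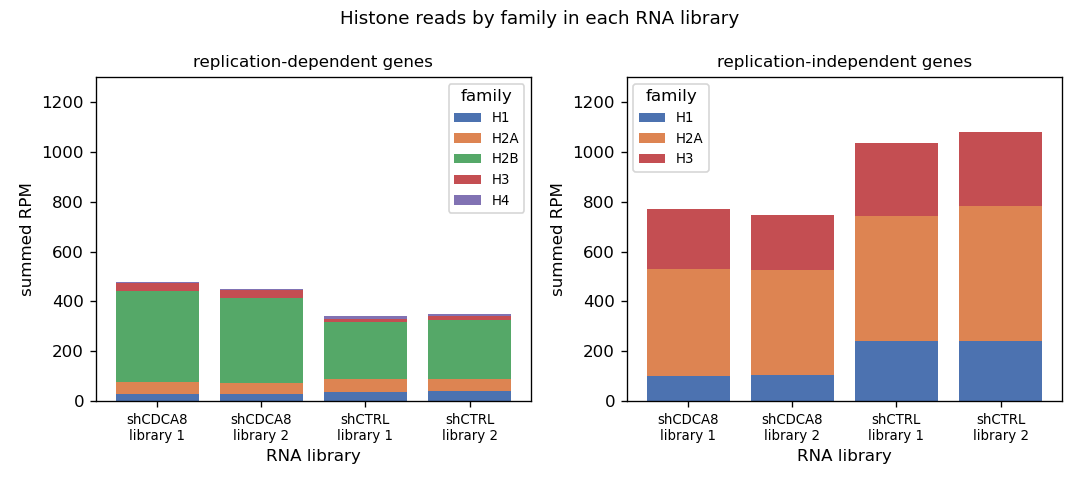
Summed RPM (vertical axis) of replication-dependent (left) and replication-independent (right) histone genes in each of the 4 RNA libraries, with colours for the histone family. The replication-dependent bars are taller in shCDCA8 (479 and 450.5 RPM) than in shCTRL (340 and 350.3 RPM), mostly through H2B, and the replication-independent bars are shorter. RPM is as deposited, with a smaller share of reads in the gene rows in shCDCA8 than in shCTRL.

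H2B genes carried most of the replication-dependent reads, 76.0% and 76.1% in shCDCA8 and 67.5% and 67.9% in shCTRL. These are shares of reads and not of molecules, since RPM is not divided by gene length. HIST1H2BK alone took 41.7% and 40.9% of the class's reads in shCDCA8 and 35.1% and 34.4% in shCTRL. Its gene span overlaps that of HIST1H4I in RefSeq, and the counting is not stated to use strand.

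Of 10 H2B genes tested 6 rose and 1 fell, and their median was 0.33 on the log2 scale. HIST1H2BD had the largest rise of the replication-dependent genes, at 37.7 and 32.8 RPM in shCDCA8, against 14.4 and 12.7 RPM in shCTRL. The groups were well apart, and the log2 fold change was 1.32 with an SE of 0.124 (n = 2 libraries each, adjusted p = 2.98e-06 by limma). Its relative change was 1.59. An antisense gene overlaps its span, and its reads could not be told apart from those of HIST1H2BD. HIST1H2BC was at 14.8 and 11.7 RPM in shCDCA8, against 5.87 and 6.21 RPM in shCTRL (1.01 ± 0.144, adjusted p = 7.16e-05). HIST1H2BK was at 199.7 and 184 RPM in shCDCA8, against 119 and 121 RPM in shCTRL (0.67 ± 0.0924, adjusted p = 5.27e-05). All 3 are among the genes for which tailed transcripts have been reported, and each shCDCA8 library lay above both shCTRL libraries.

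HIST2H2BE, which lies in the smaller cluster on chromosome 1, was at 94.0 and 97.3 RPM in shCDCA8 and 74.4 and 83.6 RPM in shCTRL (0.28 ± 0.101, adjusted p = 0.0299). The groups did not overlap, but the call was lost without shCDCA8 library 1 (0.30, adjusted p = 0.0614), without shCDCA8 library 2 (0.25, adjusted p = 0.11) and without shCTRL library 1 (0.19, adjusted p = 0.237). HIST2H2BF was at 4.38 and 3.44 RPM in shCDCA8, against 2.87 and 2.78 RPM in shCTRL (0.35, adjusted p = 0.0452), and lost its call without shCDCA8 library 1 (0.21, adjusted p = 0.367), without shCTRL library 1 (adjusted p = 0.0531) and without shCTRL library 2 (adjusted p = 0.0867). HIST1H2BF was at 1.30 and 1.34 RPM in shCDCA8 and 0.825 and 0.706 RPM in shCTRL (0.39, adjusted p = 0.0141). The groups did not overlap, but its call was lost without either shCDCA8 library (adjusted p = 0.0512 and 0.0626) and without shCTRL library 2 (adjusted p = 0.0581).

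HIST1H2BL was the H2B gene that fell, at 0.574 and 0.705 RPM in shCDCA8, against 1.29 and 1.26 RPM in shCTRL (-0.48, adjusted p = 0.00491). It was not called with quantile normalization (-0.02, adjusted p = 0.879) or with DESeq2 on recovered reads (adjusted p = 0.208). HIST1H2BN (0.32, adjusted p = 0.0544), HIST2H2BC (0.18, adjusted p = 0.254) and HIST1H2BJ (-0.08, adjusted p = 0.654) were not called, and HIST1H2BN and HIST2H2BC were called higher with median-ratio scaling (adjusted p = 0.00752 and 0.0119). HIST2H2BC is annotated as a transcribed pseudogene, as is HIST2H2BA, and may share reads with intact H2B genes.

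**Figure D2:**
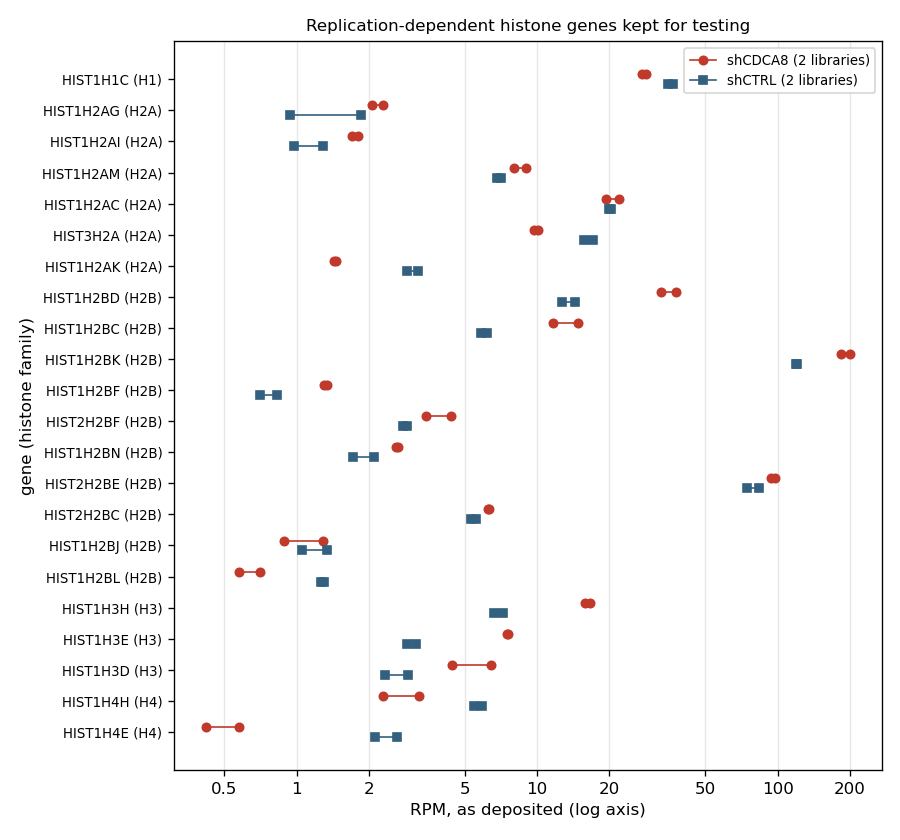
RPM as deposited (horizontal log axis) of the 22 replication-dependent histone genes tested, by family and fold change, with circles for the shCDCA8 and squares for the shCTRL libraries joined by a line within each group. HIST1H2BD, HIST1H2BC and the 3 H3 genes lie clearly to the right in shCDCA8, and HIST1H4H and HIST1H4E to the left.

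Each of the 3 H3 genes tested rose, with a median log2 fold change of 1.09. HIST1H3H was at 16.6 and 15.8 RPM in shCDCA8, against 6.60 and 7.21 RPM in shCTRL (1.12 ± 0.127, adjusted p = 1.26e-05). HIST1H3E was at 7.58 and 7.51 RPM in shCDCA8, against 3.15 and 2.89 RPM in shCTRL (1.09 ± 0.133, adjusted p = 2.19e-05). HIST1H3D was at 6.45 and 4.45 RPM in shCDCA8, against 2.91 and 2.33 RPM in shCTRL (0.82 ± 0.167, adjusted p = 0.001). None of the 3 overlapped between groups. HIST1H3D and HIST1H2AD overlap in RefSeq, so their reads may be split between them or dropped. The sum over all 10 replication-dependent H3 genes came to 135 and 135 reads per 1000 reads of H3F3B in shCDCA8, against 50.5 and 45.9 in shCTRL, so that this quantity was 2.81 times as high in shCDCA8 as in shCTRL.

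H2A genes split. Of 6 tested 2 rose, 2 fell and 2 were not called, and the H2A sum was 48.3 and 43.8 RPM in shCDCA8 and 49.9 and 50.8 RPM in shCTRL. HIST1H2AG was at 2.07 and 2.28 RPM in shCDCA8 and 1.86 and 0.942 RPM in shCTRL (0.43, adjusted p = 0.0433). The shCTRL libraries were far apart, and without shCTRL library 2 the log2 fold change was 0.15 (adjusted p = 0.451), while the call was also lost without shCDCA8 library 2 (adjusted p = 0.0756). HIST1H2AI was at 1.70 and 1.81 RPM in shCDCA8 and 0.976 and 1.28 RPM in shCTRL (0.38, adjusted p = 0.0251), and lost its call without shCDCA8 library 1 (adjusted p = 0.0592), shCDCA8 library 2 (adjusted p = 0.101) or shCTRL library 1 (0.27, adjusted p = 0.142).

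HIST3H2A, at 10.1 and 9.68 RPM in shCDCA8, against 15.7 and 17.1 RPM in shCTRL, fell with a log2 fold change of -0.68 ± 0.125 (adjusted p = 0.000473). HIST1H2AK, at 1.45 and 1.43 RPM in shCDCA8, against 3.21 and 2.89 RPM in shCTRL, fell with -0.73 ± 0.13 (adjusted p = 0.000385). Neither overlapped between groups. HIST1H2AC, which has reported tailed transcripts, was at 21.9 and 19.4 RPM in shCDCA8 and 20.3 and 19.8 RPM in shCTRL and was not called (0.04, adjusted p = 0.801). With median-ratio scaling it was called higher (0.33, adjusted p = 0.0299), as was HIST1H2AM (0.25 as deposited, adjusted p = 0.11, and 0.53 with the scaling, adjusted p = 0.00642).

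Of the 10 H4 genes 2 were tested, and of the 5 replication-dependent H1 genes 1, and all 3 of these fell. HIST1H4E, which passed the minimum only in shCTRL, was at 0.421 and 0.579 RPM in shCDCA8, against 2.12 and 2.61 RPM in shCTRL (-1.16 ± 0.135, adjusted p = 1.47e-05). This was 22 and 32 reads in shCDCA8, against 113 and 122 reads in shCTRL. HIST1H4H, which has reported tailed transcripts, was at 2.28 and 3.22 RPM in shCDCA8, against 5.48 and 5.93 RPM in shCTRL (-0.85 ± 0.152, adjusted p = 0.000402). HIST1H1C, the linker histone H1 gene that passed the minimum, was at 28.2 and 27.4 RPM in shCDCA8, against 35.1 and 36.7 RPM in shCTRL (-0.36 ± 0.108, adjusted p = 0.0119). Its relative change was only -0.09, it was not called with median-ratio scaling (adjusted p = 0.632), and the call was also lost without shCDCA8 library 2 (adjusted p = 0.0586) or shCTRL library 2 (adjusted p = 0.0685).

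In all, 6 of the 11 rises (HIST1H2BC, HIST1H2BD, HIST1H2BK, HIST1H3D, HIST1H3E and HIST1H3H) and 4 of the 6 falls (HIST1H2AK, HIST1H4E, HIST1H4H and HIST3H2A) held in each of the 14 alternatives run. Among these falls, HIST1H4E passed the minimum only in shCTRL, where it was high. Of the 7 genes with reported tailed transcripts, 4 rose, 2 fell and 1 was not called, and of the 15 other replication-dependent genes tested 7 rose and 4 fell, beside 18.8% and 47.6% of all genes tested. The 34 replication-dependent genes under the minimum had at most 64 reads in a library and together took 463 and 419 reads in shCDCA8 and 423 and 343 in shCTRL. Of these 14 had under 10 reads in every library. The groups did not overlap for 9 genes on the higher and 5 on the lower side, as against 26.5% and 56.8% of the tested genes. HIST1H1E, a linker histone gene, had 28 and 31 reads in shCDCA8, against 54 and 44 reads in shCTRL, and with a minimum of 0.2 RPM it fell (-0.35, adjusted p = 0.0133). HIST1H3A, with 27 and 43 reads in shCDCA8 and 21 and 8 in shCTRL, and HIST1H2AE, with 31 and 22 in shCDCA8 and 10 and 11 in shCTRL, rose with that minimum (adjusted p = 0.0206 and 0.0253). These 3 were the members that this lower minimum added to the calls, where 8845 of all 13935 genes tested were called. In that fit 12 replication-dependent genes rose and 7 fell, against 11 and 6, so a rise of the main fit was lost.

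Many replication-dependent genes stand in divergent pairs, whose start sites lie back to back over a shared promoter. RefSeq start sites gave 11 such pairs within 500 bases of each other, and both partners were tested in 5. HIST1H3D and HIST1H2AD have the same start site, 223 bases from that of HIST1H2BF. That promoter was therefore counted more than once among the 11. In 1 pair (HIST1H3D with HIST1H2BF) both were called higher, but HIST1H2BF passed the minimum only in shCDCA8 and lost its call without any of 3 libraries. HIST1H2BC rose by 1.01 on the log2 scale beside HIST1H2AC at 0.04, across 246 bases. HIST1H2BL was called lower and HIST1H2AI higher across the 244 bases of the promoter printed above. HIST1H2BL passed the minimum only in shCTRL, and both calls were lost in the alternatives given above, so nothing is read from this pair. In the other pairs HIST1H2AK fell beside HIST1H2BN, which was not called, and HIST1H2AG rose beside HIST1H2BJ, which was not called. The difference between partners was not tested.

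Among the replication-independent genes both linker histones fell. H1F0 encodes H1.0, the linker variant of slowly dividing and differentiated cells. It was at 26.5 and 25.0 RPM in shCDCA8, against 84.0 and 90.9 RPM in shCTRL (-1.73 ± 0.105, adjusted p = 1.26e-07), the lowest fold change of the 30 histone genes tested. H1FX, which encodes the linker variant H1.X, was at 72.9 and 79.3 RPM in shCDCA8, against 156 and 148 RPM in shCTRL (-0.99 ± 0.0969, adjusted p = 4.13e-06). Antisense genes overlap H1FX and H2AFY, DPAGT1 overlaps H2AFX and, among the replication-dependent genes, FCGR1A overlaps HIST2H2BF in RefSeq. Reads of these could not be told apart from those of the histone genes where strand was not used.

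H2AFX encodes H2A.X, which is phosphorylated around DNA breaks, and its mRNA can end in either a stem-loop or a tail. It was at 43.5 and 49.3 RPM in shCDCA8, against 108 and 124 RPM in shCTRL (-1.30 ± 0.11, adjusted p = 1.34e-06). H2AFV and H2AFZ encode the forms of H2A.Z, a variant of promoters. H2AFV was at 29.8 and 26.0 RPM in shCDCA8, against 55.1 and 54.9 RPM in shCTRL (-0.96 ± 0.111, adjusted p = 1.53e-05). H2AFZ was at 84.3 and 78.5 RPM in shCDCA8, against 125 and 128 RPM in shCTRL (-0.63 ± 0.0955, adjusted p = 0.000116). These 5 falls, in H1F0, H1FX, H2AFX, H2AFV and H2AFZ, held in each of the 14 alternatives.

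H3F3B, which encodes H3.3, was at 241 and 223 RPM in shCDCA8, against 294 and 298 RPM in shCTRL (-0.35 ± 0.0882, adjusted p = 0.00401). Its relative change was -0.08, and it was not called with median-ratio scaling (adjusted p = 0.702). The variants on the higher side were macroH2A1 and H2A.J. H2AFY, which encodes macroH2A1, a variant of silent chromatin, was at 187 and 184 RPM in shCDCA8, against 140 and 158 RPM in shCTRL (0.31 ± 0.0956, adjusted p = 0.0123). It lost its call without shCTRL library 1 (0.23, adjusted p = 0.135). H2AFJ, whose product H2A.J is known from senescent cells, was at 86.0 and 82.9 RPM in shCDCA8 and 74.3 and 78.1 RPM in shCTRL and was not called as deposited (0.15, adjusted p = 0.201), but was called higher with median-ratio scaling (0.46, adjusted p = 0.00133). The H2A variants thus shifted against each other within a library, with 2216 and 2338 H2AFY reads per 1000 H2AFZ reads in shCDCA8, against 1124 and 1236 in shCTRL.

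**Figure D3:**
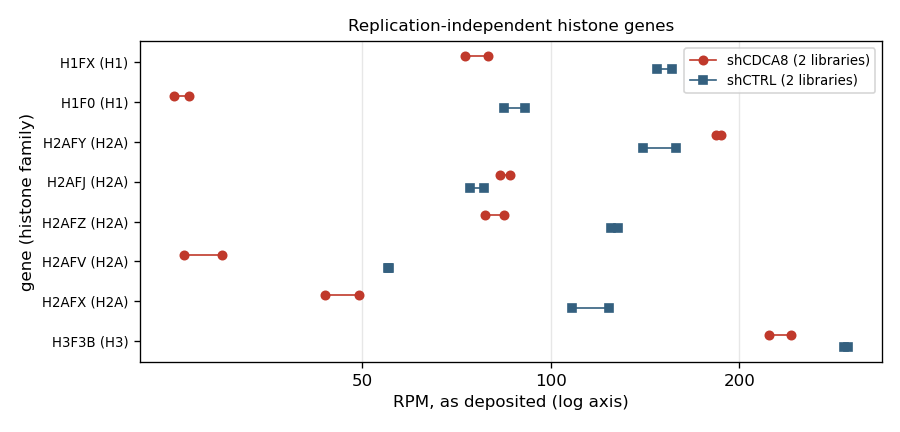
RPM as deposited (horizontal log axis) of the 8 replication-independent histone genes, with circles for the shCDCA8 and squares for the shCTRL libraries joined by a line within each group. H2AFY and H2AFJ lie to the right in shCDCA8 and the other 6 genes to the left, H1F0 furthest.

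**Figure D4:**
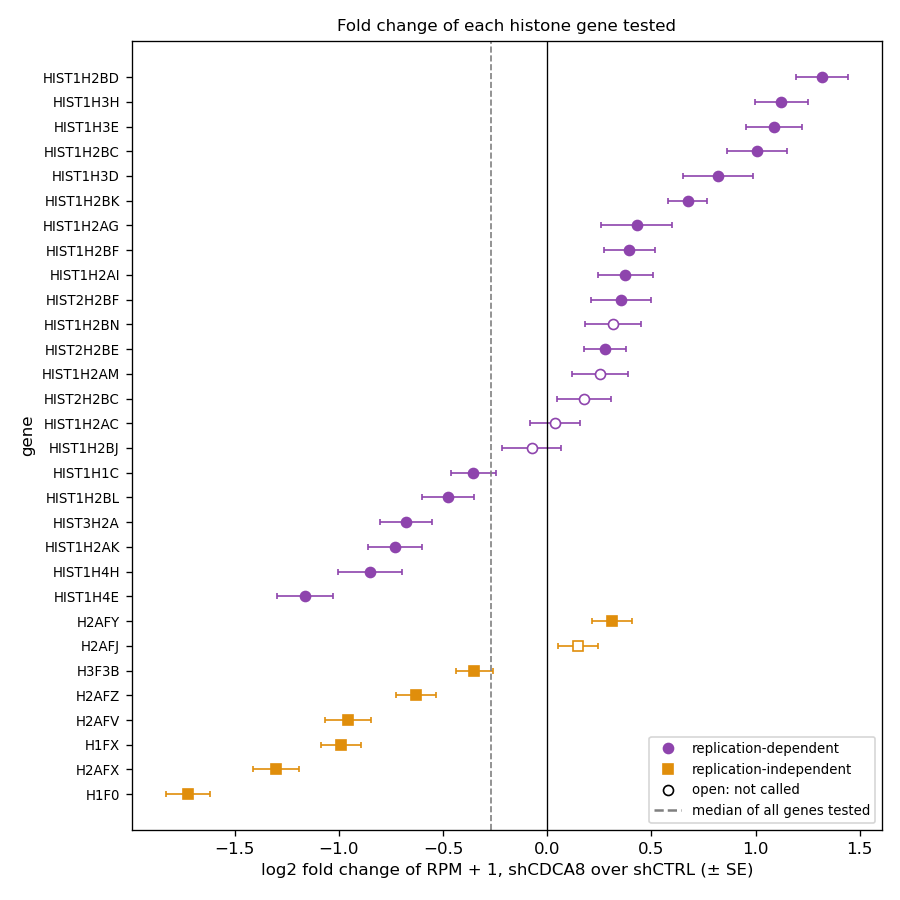
Log2 fold change of RPM + 1, shCDCA8 over shCTRL (horizontal axis, bars show the SE), of the 30 histone genes tested, with circles for replication-dependent and squares for replication-independent genes, open where not called. The dashed line is the median of all genes tested (-0.27), and 16 of 22 replication-dependent genes lie to its right, against 2 of 8 replication-independent genes.

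Other variant genes, outside both classes, were lower. CENPA, the H3 variant of centromeres, was at 1.59 and 1.50 RPM in shCDCA8, against 5.70 and 5.93 RPM in shCTRL (-1.42, adjusted p = 2.57e-06). H2AFY2, which encodes macroH2A2, was at 1.97 and 1.56 RPM in shCDCA8, against 8.57 and 8.71 RPM in shCTRL (-1.81, adjusted p = 6.64e-07). Here macroH2A2 fell where macroH2A1 rose. The other 3 measured genes of this list stayed under the minimum.

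Genes that transcribe the replication-dependent clusters and cut their RNA were measured next. Of 21 tested 6 rose, 8 fell and 7 were not called, with a median of -0.10, beside 18.8% higher and 47.6% lower of all genes tested. With median-ratio scaling 6 rose and 4 fell. NPAT, the coactivator of the clusters, was at 2.78 and 3.13 RPM in shCDCA8, against 1.67 and 1.63 RPM in shCTRL (0.58, adjusted p = 0.00209). SLBP, which binds the stem-loop, was at 23.0 and 24.4 RPM in shCDCA8, against 29.3 and 32.5 RPM in shCTRL (-0.37, adjusted p = 0.0137), but its relative change was -0.10 and it was not called with median-ratio scaling (adjusted p = 0.55), without shCDCA8 library 1 (adjusted p = 0.0802) or without shCTRL library 2 (adjusted p = 0.105). LSM10, a protein of the U7 particle that directs the stem-loop cut, was at 16.9 and 17.7 RPM in shCDCA8, against 37.2 and 37.9 RPM in shCTRL (-1.08, adjusted p = 6.06e-06). ZCCHC6, a uridylyltransferase of RNA decay, rose by 1.44 (adjusted p = 3.71e-06) and NCBP1, a subunit of the cap-binding complex, by 1.06 (adjusted p = 2.04e-05) on the log2 scale. CASP8AP2, which encodes the processing factor FLASH, was under the minimum, at 0.306 and 0.217 RPM in shCDCA8 and 0.131 and 0 RPM in shCTRL.

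Of 24 histone chaperones and deposition factors 4 rose, 13 fell and 7 were not called (median -0.37), beside 18.8% higher and 47.6% lower of all genes tested. With median-ratio scaling 6 rose and 6 fell. ASF1B, a chaperone of H3 and H4, was at 5.80 and 6.28 RPM in shCDCA8, against 18.4 and 21.5 RPM in shCTRL (-1.57, adjusted p = 1.33e-06). HJURP, which loads CENPA, was at 6.43 and 5.62 RPM in shCDCA8, against 15.5 and 18.3 RPM in shCTRL (-1.35, adjusted p = 5.71e-06). SUPT16H, a subunit of the FACT complex, was at 37.1 and 35.6 RPM in shCDCA8, against 11.6 and 14.1 RPM in shCTRL (1.44, adjusted p = 1.69e-06). Close relatives of these genes, chosen after their values were seen, went the other way. ASF1A rose by 1.05 on the log2 scale (adjusted p = 0.000113) where ASF1B fell, and SSRP1, the FACT partner of SUPT16H, was lower at -0.67 (adjusted p = 7.69e-05).

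Of 30 DNA replication genes 26 fell and 0 rose (median -0.82, and 21 fell with median-ratio scaling), beside 47.6% and 18.8% of all genes tested, with MCM3 of the replicative helicase at -1.84, thymidine kinase TK1 at -1.27 and CDC45 at -1.49. Replication genes thus mostly fell where more replication-dependent histone genes rose than fell, and the part of cell cycle phase in the histone values was not tested. Of 12 tested genes that lie among the HIST1 genes on chromosome 6 but encode no histone, 4 rose and 7 fell (median -0.56), beside 18.8% and 47.6% of all genes tested. PRSS16 (-2.53), BTN3A3 (-1.02) and HMGN4 (-0.94) had the smallest p of these. PRSS16 and BTN3A3, and BTN3A1 among the other falls, passed the minimum only in shCTRL, where they were high.

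**Figure D5:**
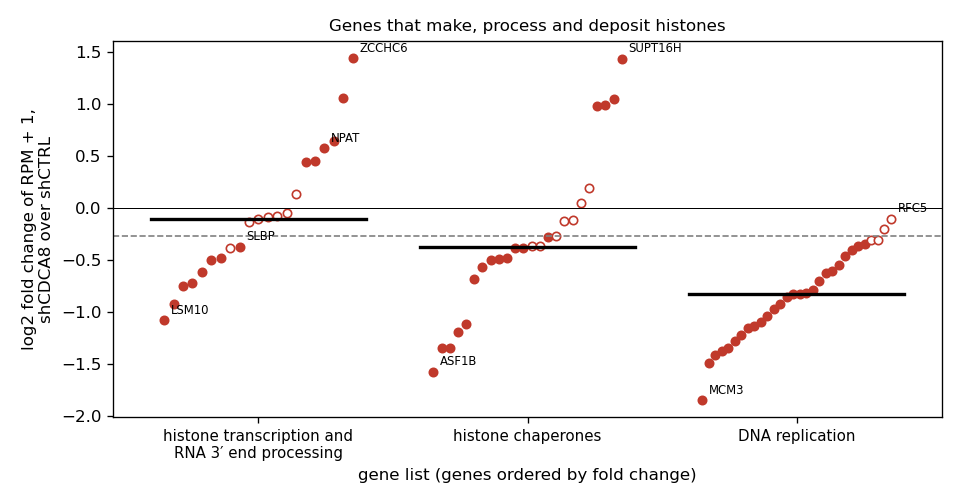
Log2 fold change of RPM + 1, shCDCA8 over shCTRL (vertical axis), of each tested gene of 3 lists, ordered within a list, with open circles for genes not called, black bars for list medians (-0.10, -0.37 and -0.82) and a dashed line for the median of all genes tested (-0.27). The replication genes all lie below 0, whereas the other lists reach from ASF1B at -1.57 to ZCCHC6 and SUPT16H at 1.44.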

How the data were processed

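Gene values are RPM, deposited by the authors in a table of 18892 genes. Per the submitters' processing notes the tools were TopHat, HTSeq, edgeR and cutadapt and the build hg19, without versions. The sources used here do not give the gene annotation, the handling of reads that match several genes or the use of strand. Copies of histone genes are nearly identical, so single members may gain or lose shared reads. Every value above 0 was a whole multiple of a step in its library (100% within 0.01 of a whole read), from which whole reads were recovered.

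limma 3.58.1 in R 4.3.3 was run on log2(RPM + 1), two-sided and with a mean-variance trend. Its prior had 9.8 degrees of freedom, so most of the variance used for a gene came from other genes of similar level. The 11833 genes tested reached 1 RPM in 2 or more of the 4 libraries. Fold changes on this scale understate those of low genes. Genes with adjusted p under 0.05 (Benjamini-Hochberg, all tested genes) count as called, and "rose" and "fell" are used only of calls. On the recovered reads edgeR 4.0.16 called 7807 genes and limma 7852 on RPM. DESeq2 1.42.0 was a further alternative. The fit was tested on simulated data. Precision is limited by 2 libraries per group and, for low genes, by the reads given.

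Members and lists were chosen with earlier results of these data known. The lists are further histone variants, reported tailed histone genes, histone transcription and RNA processing, chaperones, DNA replication, HIST1 neighbours and cell type markers. Named genes are CDCA8, every tested histone gene, CENPA, SLBP, NPAT and CASP8AP2, and up to 3 genes with the smallest p per list. EZH2 (-1.52) and ACTB (-0.48) were also under this rule. Summed markers of fibroblasts were at 4.59 and 5.30 RPM in shCDCA8, against 11.9 and 14.5 RPM in shCTRL, most of it COL1A1. Those of basal epithelium were at 2.83 and 3.36 RPM in shCDCA8, against 6.64 and 7.11 RPM in shCTRL. Of the fibroblast markers 2 of 2 tested fell and of the basal ones 1 of 2, beside 47.6% of all genes tested. Promoters came from RefSeq by current symbol: 64 of 64 members matched and 56 had a promoter.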

Additional observations from a re-analysis of the deposited data

How the results depend on the processing

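Of 420 values (30 tested histone genes under 14 alternatives) 350 kept their direction and side of the threshold, 35 lost and 27 gained a call, and 8 changed sign. The replication-dependent genes that rose numbered 7 to 9 when single libraries were left out (7 without either shCDCA8 library), against 11. The replication-independent genes that rose numbered 2 under median-ratio scaling, quantile normalization, scaling to the gene rows, edgeR and DESeq2, and 0 to 1 when single libraries were left out (0 without shCTRL library 1), against 1. The difference between class medians, 1.09, was 0.84 with no minimum and 0.91 with a minimum of 0.2 RPM, settings that add genes with few reads. HIST1H2BJ, -0.08, turned to 0.090 with median-ratio scaling, 0.36 with quantile normalization, 0.14 with scaling to the gene rows, 0.16 with edgeR and 0.18 with DESeq2, and ran from -0.21 to 0.062 without single libraries. HIST1H2AC ran from -0.047 to 0.12 without single libraries, and ACTB turned to 0.20 with quantile normalization. The cause was not tested. The replication-dependent calls lost without a library numbered 5 rises and 1 fall, all named above. Over all genes 28.3% of calls were higher, against 49.7% with median-ratio scaling.

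The labels number the replicates but do not state that same-numbered libraries were paired. Over the 11833 genes tested, deviations from the group mean correlated at 0.31 between same-numbered libraries of the 2 groups. Whether the libraries were paired cannot be told from 2 replicate numbers, and the main fit had no replicate term. With the replicate block 13 replication-dependent genes rose and 6 fell, against 11 and 6 without it. In all 8901 genes were called with it, against 7852. Depth limits the 34 replication-dependent genes under the minimum, 14 of which had under 10 reads in every library.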
